A study of Mus musculus with 2 samples.

Results

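Aminoacyl-tRNA synthetases are the enzymes that attach each amino acid to its transfer RNA, and the genes described here are those of the cytosolic and mitochondrial synthetases of the mouse with a pair of scaffold proteins. They were taken by symbol, as every listed gene named by one letter and ars, ars1 or ars2, together with Eprs, Farsa, Farsb, Qars, Aimp1 and Aimp2. This gave 39 of the 17215 genes listed: 20 for cytosolic enzymes or their subunits, 17 for mitochondrial enzymes and 2 for scaffold proteins. The values come from RNA sequencing of MC3T3-E1 cells, a clonal pre-osteoblast line from mouse calvaria, cultured with formaldehyde at 100 µM in one library and at 300 µM in the other. Formaldehyde is a small aldehyde that crosslinks DNA and protein. The labels name no genotype, other agent, exposure time or replicate. Cells without formaldehyde are not analysed here. With 1 library per dose every difference below is one between 2 libraries, without a replicate check, and no p-value was computed.

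In animal cells the cytosolic and the mitochondrial ribosome draw on separate pools of charged transfer RNA. The mitochondrial synthetases are encoded in the nucleus, mostly by genes of their own whose symbols end in 2, while Gars and Kars each encode both forms of their enzyme. Several cytosolic enzymes sit together in the multisynthetase complex, which the scaffold proteins hold together. Many of the cytosolic genes are known targets of ATF4, the transcription factor of the integrated stress response, which cells raise when amino acids run short or when the kinases of eIF2 are activated. The mitochondrial genes are not generally counted among its targets.

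Levels are in FPKM, a count of fragments divided by transcript length and by the library's mapped fragments, so levels of different genes can be compared per length. Where a gene has a pair of levels, the first is from 100 µM and the second from 300 µM. The ratio used throughout is log2((FPKM at 300 µM + 1)/(FPKM at 100 µM + 1)), over the 10123 genes that averaged 1 FPKM or more in the 2 libraries. A gene was counted as higher or lower at 300 µM at or beyond 2-fold on that scale. All 39 synthetase and scaffold genes reached the level compared. The estimated depth was 18700000 fragments at 100 µM and 19000000 at 300 µM. Of the osteoblast markers, the matrix genes Col1a1 (2065 and 1714 FPKM) and Sparc (1596 and 1915 FPKM) were abundant in both libraries. Others were low: Runx2 stood at 7.99 and 3.60 FPKM, Sp7 at 7.21 and 9.47, and Ibsp at 1.83 and 1.77. Alpl stood at 0.98 and 1.06 FPKM and Bglap at 0 and 0.49. The 3 endothelial, 2 adipocyte, 3 muscle and 4 epithelial marker genes found were at or under 0.20 FPKM in both, and 5 macrophage markers summed to 16.2 and 27.7 FPKM, of which Lyz2 made up 13.2 and 26.5, with Adgre1 listed at 0 and Ptprc at 0.03 and 0.05. The part of such cells in the results was not tested, and in bulk RNA fewer cells of a type and less RNA per cell cannot be told apart.

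The cytosolic synthetase genes stood at similar levels in both libraries. Of the 20 genes, 1 was at least 2-fold higher at 300 µM and 0 were at least 2-fold lower, whereas 6.09% of all genes compared were higher and 29.8% were lower. The middle of their log2 ratios was -0.10, against a median of -0.30 for all genes compared. Among the 2754 genes with a mean level in the range of these enzymes (22.3 to 200 FPKM), 7.19% were higher and 15.1% lower, and the median was 0.10 with an SD of 0.95. The ratios of the cytosolic enzymes ran from -0.92 to 1.28, with a spread across the 20 genes (SD) of 0.55, and their summed level was 1349 and 1371 FPKM.

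The 3 most abundant cytosolic genes kept their places. Kars, the lysyl enzyme, stood at 185 and 215 FPKM. Gars, the glycyl enzyme, stood at 163 and 189 FPKM, and Nars, the asparaginyl enzyme, at 162 and 129 FPKM. These were the 3 highest members in both libraries, in the same order. Rars, which charges arginine, was the fourth highest member, scaffold genes included, at 119 FPKM at 100 µM and the ninth at 68.0 FPKM at 300 µM. Aars, the alanyl enzyme, stood at 87.8 and 105 FPKM and Vars, the valyl enzyme, at 75.6 and 86.9 FPKM. Across the 20 cytosolic genes Spearman's rho between the levels in the 2 libraries was 0.86, and across the 17 mitochondrial genes it was 0.68. Genes are not independent replicates, so both values only describe these libraries.

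**Figure D1:**
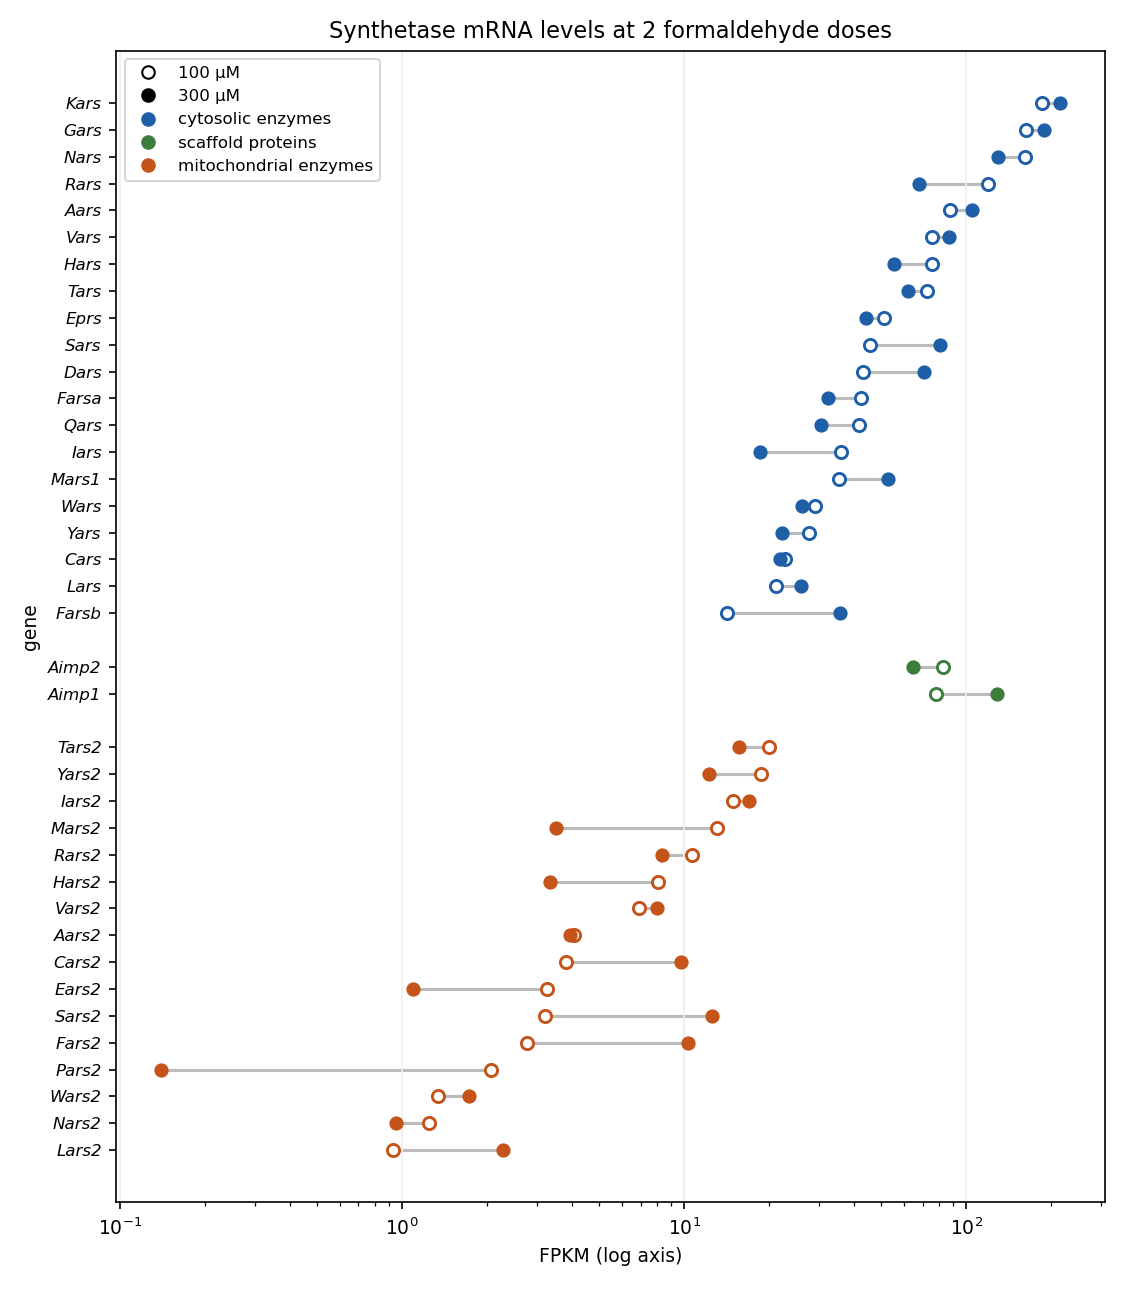
FPKM of the synthetase and scaffold genes (log axis) at 100 µM (open circles) and 300 µM (filled circles), 1 library per dose, coloured by compartment and sorted by level at 100 µM within each. The cytosolic enzymes lie between 14.2 and 215 FPKM with the longest line between doses for Farsb, while the mitochondrial enzymes lie between 0.14 and 20.0 FPKM, with the longest line for Pars2.

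The 1 cytosolic gene beyond 2-fold was Farsb, which encodes the beta subunit of the phenylalanyl enzyme. Its level was 14.2 and 35.8 FPKM, a log2 ratio of 1.28 that 97.3% of all genes compared lay below. Counting error alone gives a 95% interval of 2.27 to 2.82 for the 2.53-fold difference. Farsa, the alpha subunit of the same enzyme, stood at 42.3 and 32.2 FPKM, a log2 ratio of -0.38. The active enzyme holds both subunits in equal number, so their mRNA levels can be set side by side: Farsa was 2.99 times Farsb at 100 µM and 0.90 times Farsb at 300 µM. Of the 50-base words of the Farsb transcript, 10.1% also occur in transcripts of the neighbouring gene Sgpp2, which was near the floor at 0.40 and 0.09 FPKM.

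Next to Farsb, the largest positive ratios among cytosolic genes belonged to Sars, Dars and Mars1. Sars, the seryl enzyme, stood at 45.6 and 80.6 FPKM (log2 ratio 0.81), Dars, the aspartyl enzyme, at 42.9 and 70.7 FPKM (0.71) and Mars1, the methionyl enzyme, at 35.3 and 52.7 FPKM (0.57). At the other end, Iars, the isoleucyl enzyme, stood at 35.9 and 18.6 FPKM (-0.92) and Rars had -0.80. Iars came closest to 2-fold lower, and the interval of its fold difference from counting error was 1.81 to 2.07 in favour of 100 µM. Its count is uncertain in part, since 8.61% of its words occur in the copy Gm4849. The other cytosolic genes had log2 ratios between -0.44 (Hars) and 0.29 (Lars). Ratios this near 0 change sign with the scale: for centring on the median gene 6 of the 39 members did so, for an unweighted TMM factor 10 and for equal sums of FPKM 8.

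Cytosolic genes known as ATF4 targets and the other cytosolic genes had medians close to each other. The 12 known targets (Aars, Cars, Eprs, Gars, Iars, Lars, Mars1, Nars, Sars, Tars, Wars and Yars) had a median log2 ratio of -0.10, with 0 higher and 0 lower, and ratios from -0.92 to 0.81. The other 8 (Dars, Farsa, Farsb, Hars, Kars, Qars, Rars and Vars) had ratios from -0.80 to 1.28 around a median of -0.09, and Farsb alone was beyond 2-fold. Both ranges cover 0 on either side, and the difference was not tested. Atf4 itself had 168 and 293 FPKM, or 0.80 as log2 ratio.

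The ATF4 composite site, searched as TGATGNAA on both strands, gave a feature of the promoters that does not come from these libraries. RefSeq promoters of GRCm38.p6, 250 bases before to 50 after a start, were found for 29 of the 39 genes. Among those without an entry were Cars, Hars, Hars2, Lars, Nars, Pars2, Rars, Vars and Wars. In the 250 bases before the start, 3 of 13 cytosolic genes held the motif, Aars, Gars and Tars, against 0 of 14 mitochondrial genes and 0 of the 2 scaffold genes. Of 8238 genes compared that had a promoter entry, 2.11% held it, and of all 27025 genes with an entry 3.91%. With the 50 bases after the start included, a window chosen after the counts were seen, Iars and Yars were added, which makes 5 of 13. The share of the genes compared was then 2.4%. All 5 genes are among the known ATF4 targets, as are 8 of the 13 cytosolic genes with a promoter entry. A match describes these letters only and is no evidence of binding.

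The matches are printed below to show where the motif lies and what surrounds it, since the motif's own letters are fixed by the search. Each is given 5′ to 3′ on the strand of its gene, with the motif in capitals. Both matches of Aars and those of Gars, Iars and Tars read TGATGNAA on the opposite strand, and that of Yars reads it as printed. The upstream Aars site begins 112 bases before the start, the Gars site 30 and the Tars site 15. These 3 stretches end before the start. The second Aars match, the Iars match and the Yars match lie after it, beginning at position 10, position 8 and position 4 when bases are counted from the start, and are shown in 30 bases each.
Aars (chr8:111033684-111033783, plus strand): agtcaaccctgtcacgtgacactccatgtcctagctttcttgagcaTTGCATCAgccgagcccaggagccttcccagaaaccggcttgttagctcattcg
Aars, second match (chr8:111033840-111033869, plus strand): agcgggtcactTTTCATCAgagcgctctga
Gars (chr6:55037925-55038000, plus strand): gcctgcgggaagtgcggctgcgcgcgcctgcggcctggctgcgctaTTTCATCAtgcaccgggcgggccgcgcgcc
Tars (chr15:11399659-11399719, minus strand): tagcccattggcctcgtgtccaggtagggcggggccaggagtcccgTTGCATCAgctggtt
Iars (chr13:49682126-49682155, plus strand): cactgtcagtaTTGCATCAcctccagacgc
Yars (chr4:129189895-129189924, plus strand): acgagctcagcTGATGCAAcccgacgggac

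The upstream Aars motif and those of Tars, Iars and Yars read TGATGCAA once the strand is taken into account, whereas the Gars motif and the second Aars motif have another base at the free position. The log2 ratios of these 5 genes were 0.25 for Aars, 0.21 for Gars, -0.22 for Tars, -0.92 for Iars and -0.31 for Yars. They lie on both sides of 0, and Iars is the lowest of the 20 cytosolic genes. Aars shares 22.4% of its words with Exosc6, which stood at 45.0 and 6.13 FPKM, so part of the reads of this pair could have been counted for either gene.

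Enzymes of the multisynthetase complex had ratios on both sides of 0. The 8 genes of its enzymes (Dars, Eprs, Iars, Kars, Lars, Mars1, Qars and Rars) had ratios from -0.92 to 0.71 and a median of 0.00, and none was beyond 2-fold in either direction. The 12 cytosolic genes outside it had a median of -0.10, with Farsb alone beyond 2-fold. Eprs, which joins the glutamyl and prolyl enzymes in one chain, stood at 51.0 and 44.1 FPKM, and Qars, the glutaminyl enzyme, at 41.7 and 30.6 FPKM. Its scaffold genes differed from each other: Aimp1 stood at 78.0 and 128.1 FPKM (log2 ratio 0.71) and Aimp2 at 82.9 and 64.5 FPKM (-0.36). The third scaffold gene, Eef1e1, which the naming rule leaves out and which was added with its value known, stood at 47.5 and 28.8 FPKM (-0.70). Thus 1 of these 3 scaffold genes had a higher level at 300 µM and the other two a lower one, each within 2-fold. For Aimp2 38.6% of the words occur in transcripts of the adjoining gene Eif2ak1, which stood at 18.3 and 14.8 FPKM.

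The mitochondrial synthetase genes were expressed at lower levels and spread more widely between the doses. Their median level was 3.82 and 3.95 FPKM, against 44.2 and 54.0 FPKM for the cytosolic genes. Of the 17 genes, 3 were at least 2-fold higher at 300 µM and 4 at least 2-fold lower, and 10 lay between. Their median log2 ratio was -0.03, near that of the cytosolic genes, but the spread across genes (SD) was 0.99 and the range -1.65 to 1.69. Among the 6309 genes with a mean level in the range of these enzymes (1.10 to 17.8 FPKM), 5.77% were higher and 38.2% lower, and their median was -0.63 with an SD of 1.11, so the mitochondrial genes spread no more than other genes at their level. The 3 mitochondrial genes averaging 10 FPKM or more (Iars2, Tars2 and Yars2) had ratios from -0.57 to 0.18. All 7 genes beyond 2-fold were among the 14 below that level. Of all 5340 genes averaging 10 FPKM or more, 6.7% were higher and 21.4% lower. Their SD was 1.07, near the 1.11 of the 6309 genes above. The part of level in the spread was not tested.

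**Figure D2:**
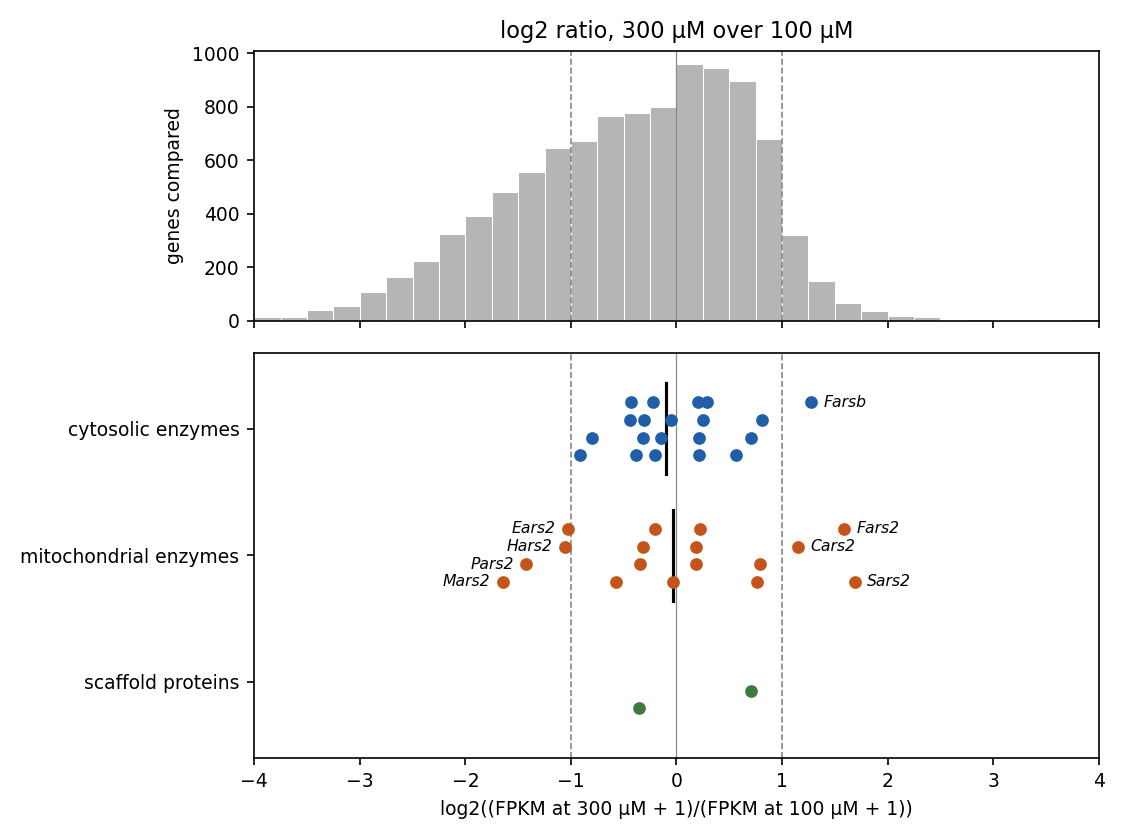
Top, number of genes compared per 0.25-wide step of the log2 ratio of 300 µM over 100 µM, with values beyond the axis put in the end steps. Below, the 39 members by compartment, with vertical offsets only to separate points, a black bar at the median of each enzyme group and dashed lines at 2-fold; Farsb alone of the cytosolic enzymes and 7 of the 17 mitochondrial enzymes lie outside the lines.

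The mitochondrial genes that were higher at 300 µM were Sars2, Fars2 and Cars2. Sars2, which charges both mitochondrial serine transfer RNAs, stood at 3.20 and 12.5 FPKM, a log2 ratio of 1.69. Fars2, the single-chain mitochondrial phenylalanyl enzyme, stood at 2.78 and 10.4 FPKM (1.59). Cars2, the cysteinyl enzyme, stood at 3.82 and 9.72 FPKM (1.15). In each of the 3 the 300 µM library was the higher one. Estimated from the coding length, the Sars2 values rest on about 93 and 371 reads and those of Fars2 on about 73 and 278, which gives 95% intervals from counting error of 3.11 to 4.97 for the 3.92-fold difference of Sars2 and 2.88 to 4.90 for the 3.72-fold difference of Fars2. The interval for Cars2 was 2.06 to 3.18 around 2.54-fold. Cars2 shares 17.8% of its words with the adjoining gene Naxd, which stood at 41.5 and 52.6 FPKM, so the level of Cars2 is less certain than those of Sars2 and Fars2, whose words occur in no other gene.

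The genes lower at 300 µM were Mars2, Pars2, Hars2 and Ears2. Mars2, the mitochondrial methionyl enzyme, stood at 13.1 and 3.50 FPKM, a log2 ratio of -1.65. Pars2, the prolyl enzyme, stood at 2.06 and 0.14 FPKM, the lowest value of any member. Its log2 ratio of -1.42 understates the difference, because the pseudocount of 1 exceeds the level at 300 µM: without it the values differ 14.7-fold. By coding length (1533 bases) the value at 300 µM rests on about 4 reads, and the 95% interval from counting error is 5.57 to 57.0. The annotated transcript of Pars2 has 3046 bases, so the reads may be more and the interval narrower. Hars2, the histidyl enzyme, stood at 8.05 and 3.34 FPKM (-1.06) and Ears2, the glutamyl enzyme, at 3.27 and 1.09 FPKM (-1.03). The last 2 lie just past 2-fold, and after centring on the median gene they lay within it, at -0.76 and -0.73. For these 4 genes the library at 100 µM was the higher one under each scaling tried. This follows from the 2-fold threshold, as no scale factor moved a member by more than 0.39. Hars2 shares 4.44% of its words with Hars and Ears2 2.0% with Ubfd1, whereas Mars2 and Pars2 share none.

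The other 10 mitochondrial genes lay within 2-fold. Lars2, the leucyl enzyme, stood at 0.93 and 2.27 FPKM. Its log2 ratio of 0.76 is reduced by the pseudocount, since the FPKM themselves differ 2.44-fold, with an interval from counting error of 1.73 to 3.50. With a pseudocount of 0.1 or after centring it was among the genes counted as higher, then 5 of 17. The most abundant mitochondrial genes were Tars2, the threonyl enzyme, at 20.0 and 15.6 FPKM, Yars2, the tyrosyl enzyme, at 18.7 and 12.3 FPKM, and Iars2 at 14.9 and 17.0 FPKM. Iars2 is uncertain, as 36.6% of its words occur in Rab3gap2, at 6.43 and 6.14 FPKM. Aars2 stood at 4.07 and 3.95 FPKM, Vars2 at 6.93 and 8.01 FPKM and Rars2 at 10.7 and 8.36 FPKM, each close to its level in the other library. By coding length, Wars2 (1.34 and 1.73 FPKM) rests on about 27 and 36 reads. Nars2 (1.25 and 0.95 FPKM) rests on about 33 and 26 reads. On these read numbers the intervals of the fold at 300 µM over 100 µM were 0.77 to 2.24 and 0.44 to 1.33. Both intervals include no difference. The annotated transcripts (4410 and 3778 bases) are longer than the coding parts (1080 and 1431 bases). The reads may therefore be more and the intervals narrower.

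The members were also set against genes of similar level. In bins of level that each span a doubling, 4 members lay above the 95th percentile of all genes in their bin, namely Farsb, Sars2, Fars2 and Cars2, and 0 lay below the 5th. These 4 are the members at least 2-fold higher, and since the 95th percentiles lie close to 2-fold, their place follows from that threshold. The 3 mitochondrial genes shared the bin from 4 to 8 FPKM, whose 1826 genes had a median of -0.80 and a 95th percentile of 1.07. Farsb was in the bin from 16 to 32 FPKM, with a median of -0.25 and a 95th percentile of 1.11 over 1640 genes. Of the mitochondrial genes 12 of 17 lay above the median of their bin, and of the cytosolic genes 7 of 20. Centring or another factor moves members and bins alike, apart from the pseudocount.

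**Figure D3:**
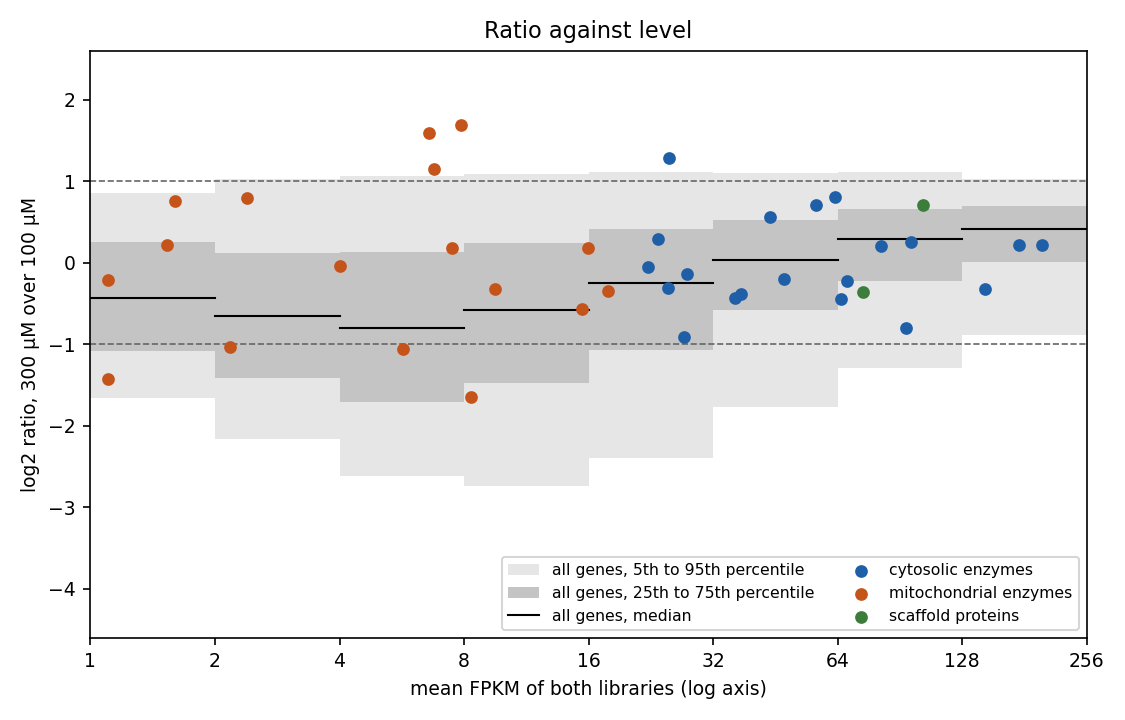
Log2 ratio of each member against its mean FPKM (log axis), over the 5th to 95th percentile (light grey), the 25th to 75th percentile (dark grey) and the median (line) of all genes in bins of level. Genes of 2 to 16 FPKM have medians from -0.80 to -0.58, and the 4 members above the light band are Farsb, Sars2, Fars2 and Cars2.

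Setting the cytosolic and mitochondrial enzymes of the same amino acid side by side gave 18 pairs for 17 amino acids. The cytosolic gene had the higher level in every pair and both libraries, by 1.49 times (Yars over Yars2) to 129 times (Nars over Nars2) at 100 µM, with a median of 12.7 times. At 300 µM the range was 1.09 times (Iars over Iars2) to 315 times (Eprs over Pars2), with a median of 11.2 times. In 10 pairs the mitochondrial gene had the larger log2 ratio and in 8 the smaller one. The difference was at least 1 on the log2 scale in 5 pairs. It was largest for methionine, where Mars2 lay 2.21 below Mars1 (-1.65 and 0.57), and the cytosolic gene stood at 2.69 times the mitochondrial one at 100 µM and 15.1 times at 300 µM. Pars2 lay 1.22 below Eprs. In the other direction Fars2 lay 1.97 above Farsa, Cars2 1.21 above Cars and Iars2 1.10 above Iars.

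In other pairs both genes lay on the same side of 0. For phenylalanine Farsb and Fars2 were both beyond 2-fold higher, with 1.28 and 1.59, while Farsa was not. Sars and Sars2 had 0.81 and 1.69, both above 0 on the deposited scale, but Sars2 alone was beyond 2-fold. Hars and Hars2 were both lower at 300 µM, with -0.44 and -1.06, and Hars2 alone was beyond 2-fold. Vars and Vars2 differed by 0.02. The sign was shared in 12 of the 18 pairs, a count that depends on the scale.

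**Figure D4:**
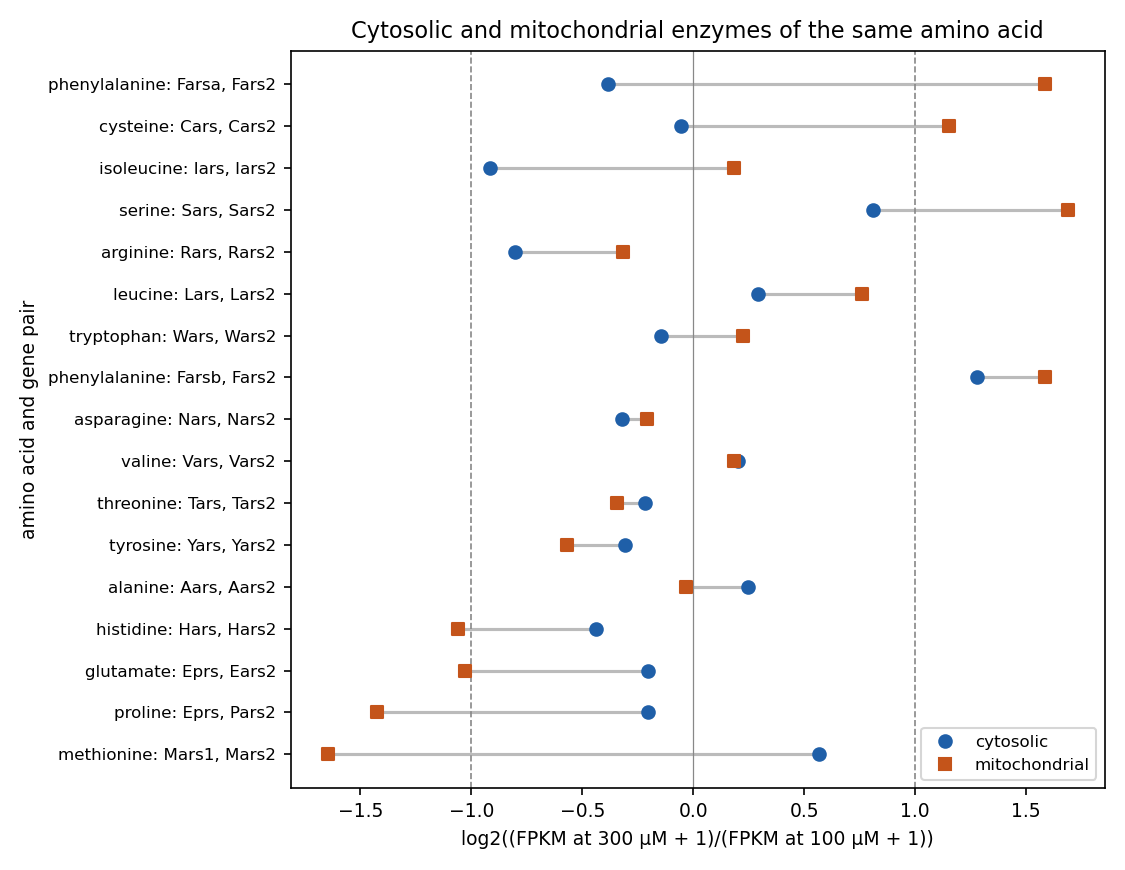
Log2 ratio of 300 µM over 100 µM for the cytosolic (blue circle) and mitochondrial (orange square) gene of the amino acids shown, sorted by their difference, with dashed lines at 2-fold. The mitochondrial gene lies to the right in the upper pairs and to the left in the lower 8, from Farsa and Fars2 at the top to Mars1 and Mars2 at the bottom.

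Features of the genes that the naming rule did not use varied along with the ratio in part. Mars2 has a single exon and Pars2 has 2 exons, and these were the members with the fewest exons, beside 31 of the 39 with 11 or more. Over all genes compared, 50% of 202 genes of 1 exon and 55.3% of 407 genes of 2 exons were at least 2-fold lower at 300 µM, against 26.7% of 4255 genes of 11 or more exons. Among the 17 mitochondrial genes Spearman's rho of the ratio was 0.41 with the number of exons and 0.55 with the span of the gene. Among the cytosolic genes these were 0.03 and 0.33, and over all genes 0.06 and -0.06. For the length of the 3′ UTR, rho was -0.35 over all genes and -0.0049 over the mitochondrial ones, and for the coding length it was -0.26 and 0.04. The median 3′ UTR was 251 bases in the cytosolic genes, 923 bases in the mitochondrial genes and 937 bases in all genes compared. These correlations are across genes, which are not independent replicates, and the part of exon number or length in the ratios was not tested. With a trend in transcript length and GC content removed from all ratios, 4.67% of all genes compared were higher and 27.9% lower, and of the mitochondrial genes 2 were higher and 3 lower. Mars2 (-0.68), Cars2 (0.82) and Hars2 (-0.98) then lay within 2-fold, whereas Yars2 (-1.03) and Aimp2 (-1.02) lay beyond it. Aimp1 moved to 0.05 and Farsb to 1.06. The value for Mars2 depends on the length annotated, which in GENCODE is 11294 bases.

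Genes that work next to the synthetases went both ways. Of 14 such genes 2 were higher and 4 lower, beside 6.09% and 29.8% of all genes compared, with a median log2 ratio of 0.02. Dtd1, which removes D-amino acids from transfer RNA, stood at 12.6 and 32.5 FPKM, and Aarsd1, which clears mischarged alanyl transfer RNA, at 24.5 and 45.9 FPKM. The subunits of the mitochondrial amidotransferase, which makes glutaminyl transfer RNA where the organelle has no glutaminyl enzyme of its own, were split. Gatc stood at 19.7 and 5.21 FPKM, whereas Gatb stood at 1.12 and 3.64 FPKM, so that Gatc was among those lower and Gatb among those higher. A further subunit gene, Qrsl1, stood at 6.85 and 7.22 FPKM, a log2 ratio of 0.07. Sephs2 and Sepsecs, which act in the synthesis of selenocysteine, stood at 21.6 and 3.47 FPKM and at 5.76 and 1.61 FPKM. Tarsl2, a further threonyl enzyme whose symbol lies outside the rule, stood at 3.51 and 6.71 FPKM.

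Of 59 genes for the maturation and export of transfer RNA, 3 were higher and 17 lower, close to the shares of all genes compared (6.09% and 29.8%), and the middle ratio was -0.50. The lowest ratio belonged to Ctu1, which thiolates wobble uridine (10.7 and 1.19 FPKM). Pop7, a subunit of RNase P, stood at 15.96 and 2.57 FPKM. Trpt1, a phosphotransferase, had the largest, at 4.75 and 12.2 FPKM.

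Of 20 genes listed under mitochondrial translation factors, 0 were higher and 4 lower, and their median was 0.07. Beside this and the next lists, 6.09% of all genes compared were higher and 29.8% lower. Tufm, the mitochondrial elongation factor that delivers transfer RNA, stood at 49.9 and 73.1 FPKM and Mterf4 at 15.5 and 0.96 FPKM. The 78 mitochondrial ribosomal protein genes compared were higher in 4 cases and lower in 5, around a median of 0.28. Of 13 cytosolic elongation and termination factors 0 were higher and 3 lower, with a median of 0.23, and Eef1a1, the cytosolic counterpart of Tufm, stood at 6948 and 10987 FPKM. The cytosolic ribosomal protein genes matched by symbol had a median of 0.86 over 77 genes. All of these medians are on the deposited scale, on which the median of the cytosolic synthetases was -0.10 and that of the mitochondrial ones -0.03. These differences between lists were not tested.

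As a background, 6.09% of all genes compared were higher and 29.8% lower. Of 18 amino acid supply genes that ATF4 is known to activate, 1 was higher and 5 lower, close to these shares. The 18 genes had a median of 0.37. When they were divided into enzymes and transporters, after the values had been seen, the enzymes lay at or above 0.31, with Phgdh, the first enzyme of serine synthesis, at 109 and 223 FPKM and Aldh18a1, which serves proline synthesis, at 38.6 and 64.9 FPKM, except Bcat1, which acts on branched-chain amino acids, at -0.47. The 5 lower ones were transporters, led by Slc38a2, a carrier of neutral amino acids (48.9 and 8.22 FPKM), and Slc7a6 (26.6 and 8.85 FPKM). The transporter gene Slc6a9 stood at 2.48 and 5.72 FPKM. Of the 20 regulators of the pathway 4 were higher and 7 lower, with a median of -0.41: Atf3 stood at 3.19 and 14.7 FPKM and Ddit3, which encodes CHOP, at 16.5 and 52.8 FPKM, but Sesn2, a leucine sensor, at 28.7 and 1.38 FPKM and the eIF2 kinase gene Eif2ak3 at 6.40 and 1.06 FPKM. Ddit3 and Mars1 are adjoining genes, and 0.62% of the words of Mars1 occur in Ddit3.

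The scale of the comparison bears on the counts above. After centring on the median gene, where 14.5% of all genes compared were higher and 22.3% lower, 3 cytosolic genes were higher (Farsb, Sars and Dars) and 0 lower, and 5 mitochondrial genes were higher and 2 lower (Mars2 and Pars2). With equal sums of FPKM in both libraries, where 2.32% of all genes compared were higher and 38.6% lower, 0 cytosolic genes were higher and 2 lower (Iars and Rars). Of the mitochondrial genes 2 were then higher and 4 lower, and Cars2, at 0.83, and Farsb, at 0.92, lay within 2-fold. In share of summed FPKM the cytosolic enzymes made up 0.25% at 100 µM and 0.20% at 300 µM, and the mitochondrial ones 0.022% and 0.017%.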

How the data were processed

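Messenger RNA of 2 MC3T3-E1 libraries, 1 per formaldehyde dose, was analysed. Per the file headers, the authors deposited an FPKM value per gene, with 2 decimals. The submitters' processing notes name Bowtie2 (an aligner) and RSEM (a quantifier) without versions. Which build and which gene models they used is not given in the sources used here. NCBI gene numbers were matched to symbols in RefSeq genes of GRCm38.p6 (17179 of 17215 rows, 36 unnamed). Lengths, exons, GC content and shared 50-base words, on either strand, came from GENCODE release M21, from the transcript with the longest coding part. RSEM divides reads between overlapping genes and copies, which makes genes with shared words less certain.

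The members and lists were chosen with earlier results of these data known. Members are named apart from an item that is not reported here (it stays in all counts), and of each other list at most the 4 largest and 4 smallest log2 ratios. Atf4, Eef1e1, Bcat1, Qrsl1, osteoblast markers and genes that share words with a member were named outside that rule, with their values known.

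FPKM times length of genes with 1 transcript of at most 1200 bases fell in part on steps of 1 read. Within 0.12 reads of a whole number were 61.0% of 123 low values at 100 µM and 62.8% of 94 at 300 µM. The step was chosen to match these same values best, so the shares are no separate check of it. The steps gave the depths. Read numbers of members use the coding length, unlike the steps, which used the whole transcript. Where a transcript is much longer than its coding part, reads may be understated and intervals too wide. Intervals are exact binomial (Clopper-Pearson) at 95%. Such intervals hold for counting error alone, as PCR copies cannot be recognised without molecular identifiers.

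Other settings tried were thresholds of 1.5-fold and 3-fold, pseudocounts (0.1 or 5), the filter (none, or 10 FPKM on average), centring on the median gene, equal sums with and without ribosomal proteins, a TMM factor without weights (30% of ratios and 5% of levels trimmed from either end), and removal of a length and GC trend. The comparison was tested on simulated data. The changes set there were all larger than 2-fold, and counting error was the only noise simulated. Versions were 3.11.15 for Python, 1.17.1 for scipy, 2.3.3 for pandas, 2.4.6 for numpy and 3.10.9 for matplotlib.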

Additional observations from a re-analysis of the deposited data

How the results depend on the processing

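No paired analysis was possible because each dose has 1 library. None of the 8 members beyond 2-fold changed sign under any setting run, which follows from their selection and is no check. The scale factors moved no member by more than 0.39 on the log2 scale. Removal of the length and GC trend moved none by more than 0.97, and pseudocounts, filters and thresholds cannot reverse a sign. The cytosolic genes higher were 3 after centring, with the TMM factor and at 1.5-fold, and 0 with equal sums and at 3-fold. Those lower were 2 with equal sums and at 1.5-fold, and 1 (Iars) with equal sums without ribosomal protein genes. The mitochondrial genes higher were 5 with a pseudocount of 0.1, after centring, with the TMM factor and at 1.5-fold, 1 (Sars2) with a pseudocount of 5 and 0 of 3 when 10 FPKM on average were required. Those lower were 1 (Mars2) with a pseudocount of 5, 0 under that same filter, 2 after centring and with the TMM factor, and 1 at 3-fold. The cytosolic median was 0.20 after centring, 0.28 with the TMM factor, -0.46 with equal sums, -0.26 with equal sums without ribosomal protein genes and 0.015 as a mean. The mitochondrial median was -0.34 under the filter of 10 FPKM (3 genes), 0.27 after centring, 0.28 with the TMM factor, -0.34 with equal sums and -0.17 with equal sums without ribosomal protein genes. The scale factors shift all ratios, which accounts for the moves of the medians under them; for the other settings the cause was not tested. With the window of 50 bases after the start, 5 members held the composite motif. Over all genes compared, the share higher was 6.09% as reported, 8.23% with a pseudocount of 0.1, 2.55% with one of 5, 16.7% with the TMM factor, 18.8% at 1.5-fold and 1.22% at 3-fold. The share lower was 29.8% as reported, 33.8%, 16.1%, 22.8%, 41.6% and 16.3% in the same order, and 33.5% with equal sums without ribosomal protein genes. Depth limits the genes with few reads, among them Pars2, Wars2, Nars2, Ears2 and Lars2.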
